A study of Mus musculus with 8 samples.

Results

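The 10 genes described here are members of the Notch pathway: the receptors Notch1, Notch2 and Notch3, the ligands Dll1, Dll3 and Jag1, and the Hes and Hey family genes Hes1, Hes5, Hey1 and Hes6. They were chosen by name, as a list, out of 31053 genes in the count tables, of which the Control library held 20035 and the TBI library 20418 with at least 1 UMI (unique molecular identifier, 1 captured RNA molecule). All 10 were detected in both libraries, with 725 UMIs in all for Hey1 and 6270 for Notch1 as the lowest and highest totals. Single-cell RNA was sequenced from dentate gyri of the Nestin-GFP strain, mice that carry a transgene that drives green fluorescent protein from Nestin regulatory sequence. The mice were 8 weeks old and were studied 15 days after either a sham craniotomy (Control) or a unilateral controlled cortical impact, a model of traumatic brain injury (TBI). Both groups carried the same transgene, and in both groups the tissue of the operated side was dissociated, pooled over animals and sorted for living GFP+ cells, so that the populations below are those the sort let through. The labels list 4 animals a condition. The sources differ on the size of the pools. The cells cannot be assigned to an animal, and each condition is therefore 1 library without a replicate.

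Notch receptors are cleaved after they bind a Delta or Jagged ligand on a neighbouring cell, and the released intracellular domain joins the DNA-binding protein RBPJ to switch on target genes. Among these targets are Hes1, Hes5 and Hey1, transcriptional repressors that hold back proneural factors and thereby keep neural stem cells from differentiating. In vessels the same pathway takes part in arterial identity and in the maturation of mural cells, the pericytes and smooth muscle cells that wrap the endothelium.

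RBPJ recognises a core of the letters GTGGGAA, and the Hes5 promoter is printed here because it is the one promoter among those of the members in which the core was found. RefSeq promoters, which run from 250 bases before to 50 bases after the gene's start, were listed for 8 of the members (10 promoters), with Hes1 and Hey1 among those not matched. The capitals mark the 2 matches, 1 on the opposite strand beginning 226 bases before the start and 1 on the gene's strand beginning 83 bases before it. The 250 bases before the start are given 5′ to 3′ on the plus strand of GRCm38.p6, chr4:154960673-154960922, and the gene itself lies at chr4:154960923-154962371.
Hes5: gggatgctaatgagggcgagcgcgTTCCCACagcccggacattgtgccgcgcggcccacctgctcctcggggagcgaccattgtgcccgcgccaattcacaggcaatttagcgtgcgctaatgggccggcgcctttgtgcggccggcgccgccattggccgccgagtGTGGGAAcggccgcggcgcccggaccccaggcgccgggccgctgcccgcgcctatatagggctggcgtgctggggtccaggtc
On either strand, 6.38% of 32851 promoters held at least 1 such core and 0.256% held 2 or more. The letters CACNAG, an N box that Hes proteins can bind, were found on either strand in 5 of the 10 member promoters and in 42.5% of all promoters. A match is a run of letters and was not measured as a bound site.

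The Control library held 3049 cells with 24629521 UMIs (median 6928 a cell) and the TBI library 5036 cells with 31503415 UMIs (median 5663 a cell), and 3 cell barcodes occurred in both. Cells were grouped with the members and a wider list of 57 pathway genes left out of the clustering, and clusters were named from markers that hold no member. Levels are given as CPM, the UMIs of a gene over all UMIs of a population and library without the nuclear RNA Malat1, on the usual scale of that unit, with 95% exact Poisson intervals that cover counting error only and not the spread between animals. Levels of different genes are not ranked against each other. Some clusters stood apart. Mural cluster 9 had 258 of its 303 cells in the TBI library and oligodendrocyte cluster 13 had 215 of 250. A lineage cluster of 17 TBI and 0 Control cells, led by the mural genes Vtn, Rgs5 and Higd1b, was left unnamed. So was lineage cluster 9, of low depth, with 53 Control and 115 TBI cells. In the clustering of all cells 183 Control and 262 TBI cells were unnamed (median 1577 and 1214 UMIs) and belonged to no class. The cluster named N-stage 7 held neurons marked by Reln, apart from the other neuronal stages. In cluster 17 of the RG-like class 12 of 136 TBI cells and 0 of 81 Control cells held at least 3 mural marker UMIs, and the log2 ratio of Hes5 in that class (-1.14) was -1.08 when such cells were left out of all classes but mural cells. Summed RNA of the 8 mural markers was 509 CPM in Control and 812 CPM in TBI in endothelial cells, and 30074 and 28717 CPM in mural cells. It was 15.7 and 16.1 CPM in RG-like cells of a second clustering, of lineage cells alone (150 Control and 227 TBI cells). There the 8 oligodendrocyte markers summed to 157 and 901 CPM and the 6 endothelial markers to 6.17 and 41.7 CPM. In the RG-like class of all cells Notch3 had 1 UMI in Control and 42 in TBI (0.38 and 12.0 CPM). The part of such RNA in the Hes5 ratio was not tested.

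The members divided the sorted cells among themselves, with some genes high in the neural stem and progenitor cells, some in astroglia and some in vessels. Across 14 populations, 8 of the 10 members had their highest level in the same population in both libraries. Notch1, Notch3 and Jag1 were highest in mural cells, Hes1 and Hey1 in endothelial cells, Notch2 in A-stage 1, an early astroglial stage, and Dll1 and Hes6 in RG-like cells. Hes5 was highest in RG-like cells in Control and in A-stage 2-4 astrocytes in TBI, and Dll3 in RG-like cells in Control and in N-stage 1-2 neuroblasts in TBI. The leading population of Dll1, Dll3, Hes5 or Hes6 changed in a library under some of the alternative settings. The heat map of the members by population shows these patterns side by side.

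**Figure D1:**
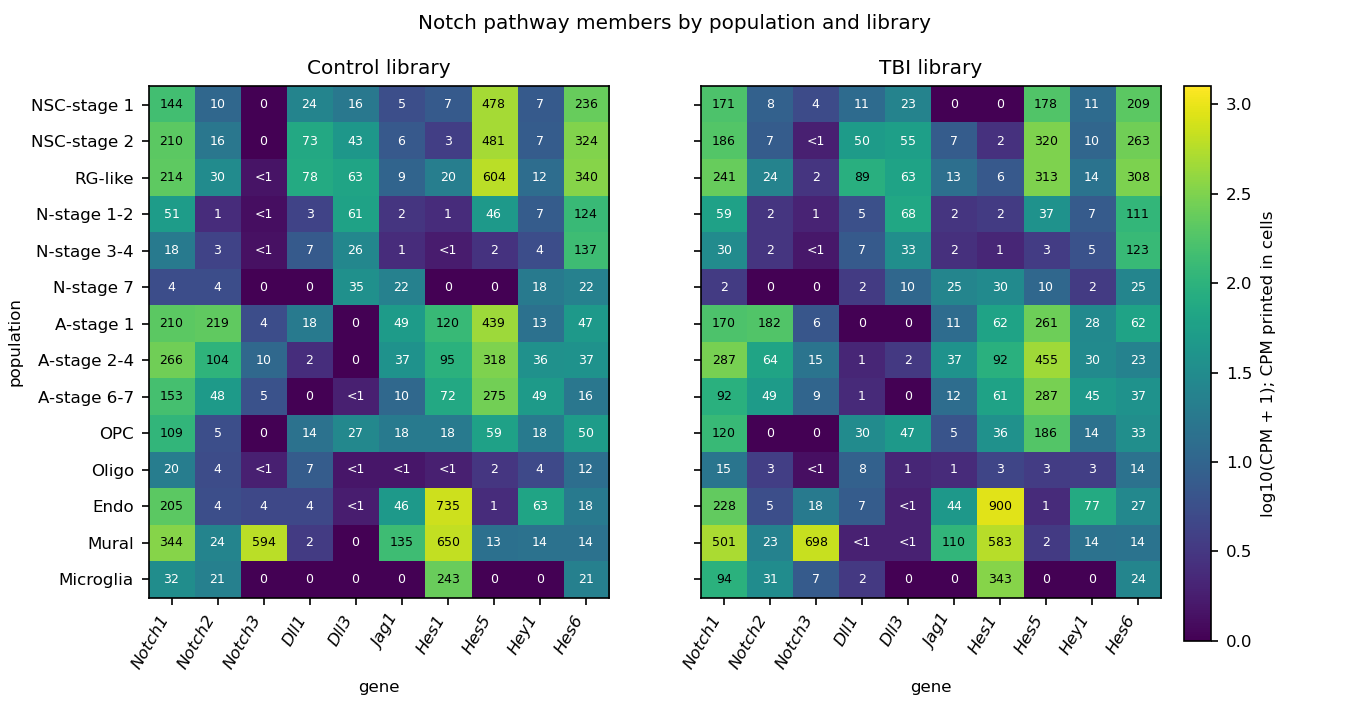
Level of each of the 10 members (columns) in 14 populations (rows) in the Control library (left) and the TBI library (right), coloured by log10(CPM + 1) with the CPM printed in each cell. Notch3 stands at 594 and 698 CPM in mural cells and at or below 17.6 CPM in every other population, whereas Notch1 is spread over neural, astroglial and vessel cells.

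The comparison of TBI with Control asked how the pathway's RNA differed between injured and sham dentate gyri within each cell class. It rests on 1 library a side, so that ratios are values with counting intervals and no test was possible. Ratios were formed in the 9 classes of the clustering of all cells. A gene needed at least 100 UMIs over both libraries and at least 10 in each library. A ratio of at least 1.5-fold either way was called past the fold. In NSC, the cycling stem and progenitor cells, 3 of 5 members measured were past the fold (Hes5, Dll1 and Dll3), beside 3.1% of 6556 genes. In the RG-like class (radial glia-like stem cells and early progenitors; 189 Control and 320 TBI cells) it was 1 of 6, Hes5, beside 3.33% of 7749 genes. In Neuron-like cells 0 of 4 members were past the fold (1.9% of 9677 genes), in Astrocyte-like cells 0 of 7 (2.5% of 6850 genes) and in oligodendrocytes 0 of 3 (1.81% of 8611 genes). In endothelial cells it was 0 of 4 (2.57% of 5594 genes), in mural cells 0 of 4 (11.6% of 5757 genes) and in microglia 0 of 1 (9.69% of 918 genes). Thus 4 of 34 member ratios passed the fold, 3 of them for genes lower in TBI, beside 4.19% of 52860 pairs of gene and class over all genes.

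**Figure D2:**
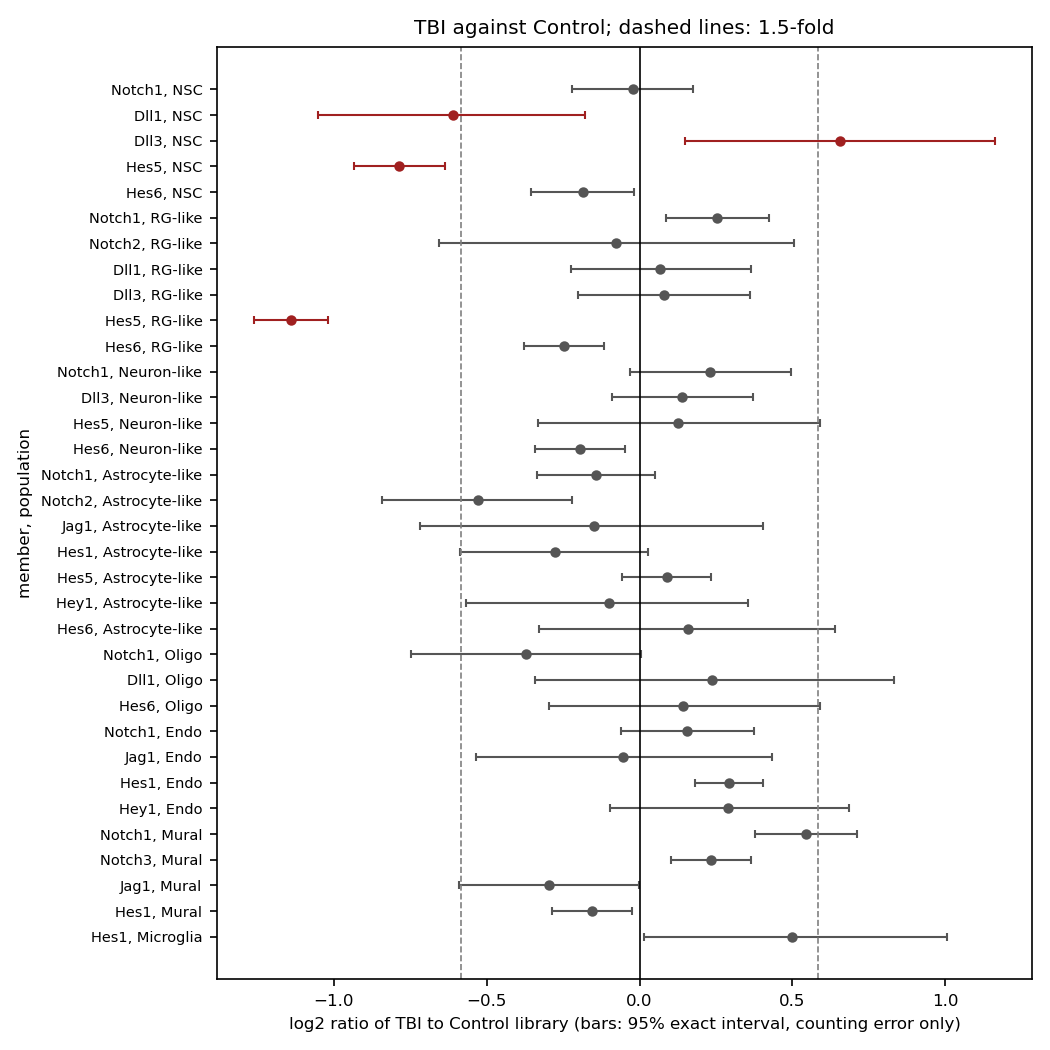
Log2 ratio of TBI to Control for the 34 pairs of member and class with enough UMIs, with bars for the 95% exact interval of counting error and dashed lines at 1.5-fold. The 4 red points are past the fold: Hes5 in RG-like cells (-1.14) and in NSC (-0.79), Dll1 in NSC (-0.61) and Dll3 in NSC (0.65).

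Among the receptors, Notch1, the receptor with the broadest expression here, was at 344 CPM (95% interval 311 to 378) in Control mural cells and 501 CPM (471 to 532) in TBI mural cells. A-stage 2-4 astrocytes followed at 266 and 287 CPM, RG-like cells at 214 and 241 CPM and endothelial cells at 205 and 228 CPM. The mural level was above that of A-stage 2-4 in both libraries, whereas the ranges of RG-like and endothelial cells over the 2 libraries overlapped. In neuronal cells Notch1 was at 51.2 and 59.2 CPM in N-stage 1-2 and at 17.8 and 30.1 CPM in N-stage 3-4, and 1 UMI was counted in N-stage 7 neurons of each library. The log2 ratio in Neuron-like cells was 0.23 (-0.03 to 0.49). It was 0.99, past the fold, when each cell was thinned to 2000 UMIs in 1 random draw. In that draw 22 of 298 Control and 71 of 552 TBI cells of N-stage 1-2 had a Notch1 UMI. In N-stage 3-4 it was 4 of 296 and 28 of 494. At 1000 UMIs a cell the shares were 3.69% and 5.07% in N-stage 1-2. In N-stage 3-4 they were 2.68% and 1.81%, lower in TBI. Oligodendrocytes had 19.6 and 15.1 CPM. A-stage 6-7 had 153 CPM (132 to 177) in Control and 92.3 CPM (72.0 to 117) in TBI, without overlap of these intervals. Its median depth was 2611 and 1474.5 UMIs. At 2000 UMIs a cell the share of its cells with a Notch1 UMI was not lower in TBI, at 20.1% of 229 Control and 21.4% of 126 TBI cells. Over all Astrocyte-like cells the log2 ratio of Notch1 was -0.14 (-0.34 to 0.05).

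The mural ratio of Notch1 was the highest of the receptor ratios, at 0.54 on the log2 scale (0.38 to 0.71), or 0.44 above the median of all genes in mural cells, which was itself at 0.10. It did not pass the fold. The classes were not made of the same cells in both libraries: cluster 1 held 141 of 281 Control mural cells, and clusters 1 and 9 held 285 and 258 of 698 TBI mural cells. Pericytes, which regulate capillary flow and barrier function, had 524 CPM in Control and 560 CPM in TBI. Smooth muscle cells had 136 CPM (106 to 172) and 289.5 CPM (234 to 354), and these intervals did not overlap. Smooth muscle cluster 32 also held more pericyte RNA in TBI, with Vtn at 164 and 777 CPM and Rgs5 at 1386 and 5308 CPM, and the part of this in the Notch1 difference was not tested. Without cluster 9, and with oligodendrocyte cluster 13 left out too, the mural ratio of Notch1 was 0.40.

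Notch2 was an astroglial receptor in these cells. It was at 219 CPM (177 to 266) and 182 CPM (124 to 256) in A-stage 1, at 104 and 63.6 CPM in A-stage 2-4 and at 47.6 and 48.8 CPM in A-stage 6-7. The ranges over the 2 libraries did not overlap between these stages, though in TBI the counting intervals of A-stage 2-4 and A-stage 6-7 did. The border of these stages rests in part on a close call. Lineage cluster 11 (93 Control and 55 TBI cells) was named A-stage 6-7 with a marker score of 1.49, against 1.39 for the next name. Without doublets a cluster with the same leading genes was named A-stage 2-4. RG-like cells had 30.4 and 23.6 CPM, and in the RG-like class the level was highest in cluster 23, led by Gpd1, at 50.9 and 37.1 CPM. Cluster 17 of the same class had 1.9 and 5.73 CPM. Over all Astrocyte-like cells Notch2 was at 102 CPM in Control and 70.8 CPM in TBI. The log2 ratio of -0.53 (-0.84 to -0.22) did not reach the fold. Over the alternatives it ranged from -0.62, past the fold, with the mean of per-cell CPM to -0.30 with cells thinned to 2000 UMIs.

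Notch3, the mural receptor whose gene is mutated in the hereditary small-vessel disease CADASIL, was at 594 CPM (551 to 638) in Control and 698 CPM (662 to 734) in TBI mural cells. After each cell was thinned at random to 2000 UMIs, 69.0% of 252 Control and 67.7% of 620 TBI mural cells had a Notch3 UMI, against 0.182% of 549 and 0 of 1014 oligodendrocytes, which serve as background. Before thinning these shares were 79.0% and 80.8% in mural cells and 0.879% and 0.272% in oligodendrocytes, at median depths of 3945 and 3120 UMIs in mural cells and 10169 and 8271 UMIs in oligodendrocytes. Cluster 38, a small group of 13 and 21 cells within smooth muscle, had the highest level at 1044 and 1417 CPM. Pericytes had 754 and 721 CPM, and the 12 and 18 fibroblast-like cells of cluster 39 had 0 UMIs.

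In some groups outside mural cells the counts of Notch3 lay mostly in cells that also held mural marker RNA. Arterial endothelial cells had 3 UMIs in Control (7.33 CPM) and 33 UMIs in TBI (53.1 CPM). When the 18 of 74 Control and 17 of 147 TBI arterial cells with at least 3 mural marker UMIs were left out, no Notch3 UMI was left in either library. In RG-like cluster 17 the TBI level was 19.3 CPM, and it was 0.791 CPM without 12 of its 136 cells, chosen the same way. Other populations changed little or not at all. A-stage 2-4 astrocytes kept 9.61 and 12.8 CPM of 10.2 and 14.8 CPM after the same step. A-stage 6-7 kept all of its 6 and 7 Notch3 UMIs, and RG-like cells of the second clustering all of their 1 and 5.

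Of the ligands, Dll1 belonged to the progenitors. RG-like cells had 77.9 CPM (66.4 to 90.7) in Control and 89.0 CPM (77.7 to 101) in TBI. NSC-stage 2 had 72.5 and 49.6 CPM, with an interval that overlapped that of RG-like cells in Control and not in TBI, and NSC-stage 1 had 24.2 and 11.2 CPM. The neuronal stages lay far lower, at 3.2 and 4.65 CPM in N-stage 1-2. Within the RG-like class the ligand was concentrated in cluster 23, which holds Dll1 and Hes5 among its leading genes, so that the order of clusters is a description. It was at 120 CPM (96.7 to 146) in Control and 159 CPM (136 to 185) in TBI. Cluster 25, led by the replication genes Ung and Mcm3, had 46.4 and 37.5 CPM, and cluster 17, led by the neuronal commitment genes Neurog2 and Eomes, had 34.3 and 18.6 CPM. The intervals of cluster 23 did not overlap those of the other 2 clusters in either library.

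In NSC, Dll1 was at 50.2 CPM in Control and 32.9 CPM in TBI, a log2 ratio of -0.61 (-1.05 to -0.18). It was lower in TBI in both NSC clusters, at 24.9 and 9.88 CPM in cluster 20 and 89.0 and 60.7 CPM in cluster 21. In the RG-like class it was 63.4 and 66.5 CPM, with a log2 ratio of 0.07 (-0.23 to 0.36). The 2 intervals overlap, and a difference between the classes was not tested. The ratio in NSC was -0.45 when cells called doublets were removed, and then did not pass the fold. In NSC-stage 1 and in NSC-stage 2 of the second clustering the counting intervals of the libraries overlapped for Dll1.

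Dll3, a divergent ligand that acts inside the cell and does not activate Notch on a neighbour, was at 60.5 CPM (52.6 to 69.3) in Control and 68.3 CPM (61.2 to 76.0) in TBI N-stage 1-2 neuroblasts and at 63.1 CPM (52.9 to 74.8) and 62.6 CPM (53.2 to 73.1) in RG-like cells. The counting intervals of these leading populations overlapped in each library. NSC-stage 2 had 42.5 and 54.8 CPM, and N-stage 3-4 had 26.1 and 33.2 CPM. The order of the RG-like clusters was the reverse of that for Dll1 at its top: cluster 17 had 95.2 and 104 CPM, cluster 23 had 66.2 and 59.9 CPM and cluster 25 had 37.6 and 45.1 CPM. In astrocytes at most 2 UMIs were counted in a stage and library, and microglia had 0.

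In NSC, Dll3 was at 23.1 CPM in Control and 36.4 CPM in TBI, a log2 ratio of 0.65 (0.15 to 1.16) from 63 and 74 UMIs. The ratio was 0.50 without doublets and then under the fold. In the second clustering Dll3 was at 16.3 and 23.4 CPM in NSC-stage 1 and at 42.5 and 54.8 CPM in NSC-stage 2. The counting intervals of the libraries overlapped in both stages. In the RG-like class (69.1 and 73.1 CPM) and in Neuron-like cells (43.1 and 47.5 CPM) the log2 ratios were 0.08 (-0.20 to 0.36) and 0.14 (-0.09 to 0.37).

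Jag1, a ligand expressed by vessel cells, was at 135 CPM (115 to 158) in Control and 110 CPM (96.4 to 125) in TBI mural cells. Smooth muscle cells had 156 and 200.2 CPM and pericytes 119 and 96.1 CPM. Arterial endothelial cells had 73.3 and 70.8 CPM, against 34.7 and 32.4 CPM in capillary endothelial cells. In A-stage 1 it was at 49.1 CPM in Control from 22 UMIs, and TBI had 2 UMIs there. A-stage 2-4 had 36.8 and 37.5 CPM, while the progenitors that held Dll1 and Dll3 had at most 12.6 CPM. The mural log2 ratio was -0.30 (-0.59 to 0.00) and was -0.05 without cluster 9.

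**Figure D3:**
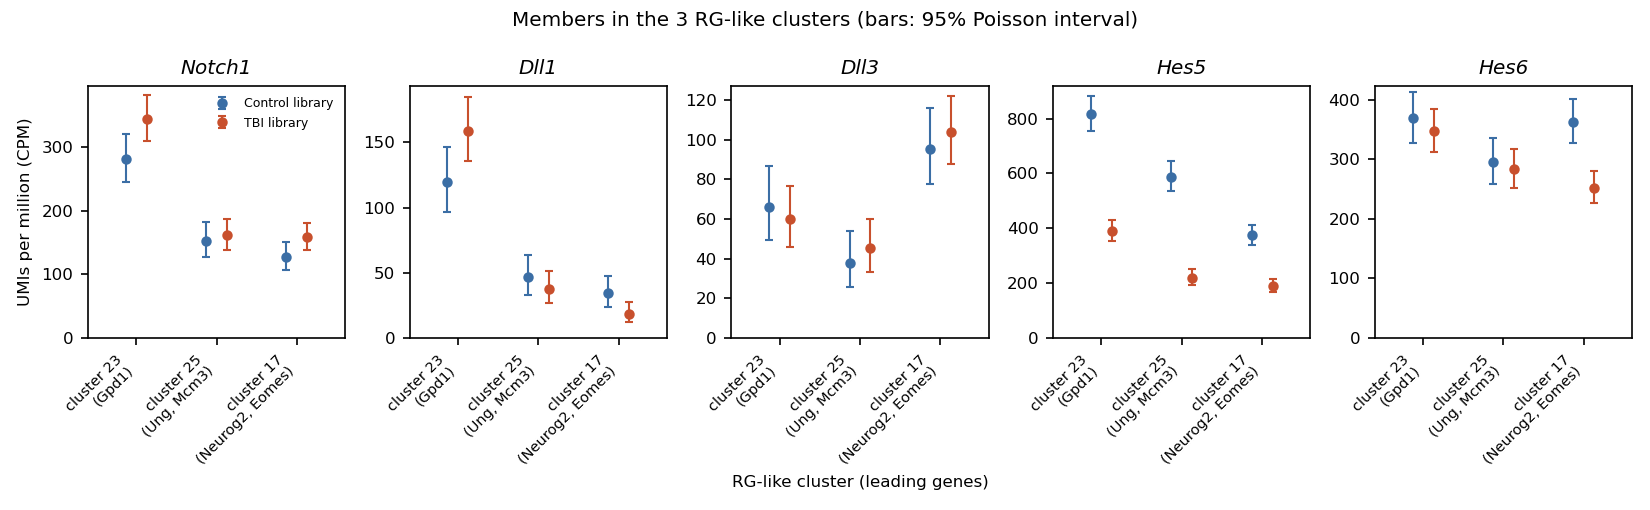
Level (CPM) of Notch1, Dll1, Dll3, Hes5 and Hes6 in the 3 clusters of the RG-like class, with 95% Poisson intervals for the Control (blue) and TBI (orange) libraries. Notch1, Dll1 and Hes5 are highest in cluster 23 and Dll3 in cluster 17, and Hes5 is lower in TBI in each of the 3 clusters.

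Among the targets, Hes5, the Notch effector of neural stem cells, set the TBI library apart in the progenitors. In the RG-like class it was at 571 CPM in Control and 259 CPM in TBI, a log2 ratio of -1.14 (-1.26 to -1.02), and in NSC it was at 447 and 259 CPM, a log2 ratio of -0.79 (-0.94 to -0.64). The level was lower in TBI in each of the 5 clusters of these classes. In cluster 23 it was 817 CPM (755 to 883) and 390 CPM (353 to 429), in cluster 25 it was 588 and 220 CPM, and in cluster 17 it was 374 and 190 CPM. NSC cluster 20, led by the histone gene Hist1h1b, had 435 and 162 CPM and NSC cluster 21, led by the mitotic gene Cdc20, had 466 and 377 CPM. The counting intervals of the libraries did not overlap in any of these 5 clusters.

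The RNA was carried by few cells. In RG-like cells of the second clustering, of lineage cells alone (150 Control and 227 TBI cells), the level was 604 and 313 CPM, and 13 Control and 9 TBI cells held 50% or more of all Hes5 UMIs. A single cell held up to 95 and 75 UMIs. Without the 5 highest cells of each library the levels were 444 and 212 CPM. In NSC-stage 1 the 5 highest cells held 51.2% of the Hes5 UMIs in Control and 69.7% in TBI, and without them the levels were 254 and 58.6 CPM. So uneven a spread over cells is wider than the Poisson intervals allow for.

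The share of cells with Hes5 followed the level. At 2000 UMIs a cell, 38.7% of 150 Control RG-like cells (95% Clopper-Pearson interval 30.8% to 47.0%) and 23.3% of 227 TBI RG-like cells (18.0% to 29.4%) had a Hes5 UMI. Oligodendrocytes gave 0.182% and 0.296%, and microglia 0 of 26 and 0 of 71 cells. Unthinned, the shares were 62.0% and 44.5% in RG-like cells (median depth 14400 and 11202 UMIs) and 1.76% and 1.63% in oligodendrocytes.

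In the same RG-like cells Neurog2, a gene of neuronal commitment, was at 383 CPM in Control and 378 CPM in TBI, and Gpd1, a metabolic gene of early progenitors, was at 509 and 528 CPM. At 2000 UMIs a cell, 41.3% of Control and 34.8% of TBI RG-like cells had a Neurog2 UMI. Both genes are markers that named the RG-like cells, so that their levels are no separate check of these cells. They are no members and were chosen with these data in view.

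In Neuron-like cells Hes5 was at 11.2 and 12.2 CPM, a log2 ratio of 0.13 (-0.33 to 0.59), and the ratio was -0.94, past the fold, without the filter on RNA content. In astroglia the ratio of Hes5 was near 0, at 345 and 366 CPM in all Astrocyte-like cells (log2 ratio 0.09, -0.06 to 0.23). The stages differed in sign. A-stage 2-4 had 318 CPM (288 to 350.3) in Control and 455 CPM (412 to 502) in TBI. Of the 387 Control and 330 TBI cells of this stage, 229 and 142 were in lineage cluster 4, at 176 CPM (142 to 217) and 288 CPM (223 to 366), and the others were in lineage cluster 7, at 412 CPM (368 to 460.1) and 515 CPM (462 to 574). A-stage 1 had 439 CPM (380.1 to 505) and 261 CPM (191 to 348), from 89 and 44 cells, and A-stage 6-7 had 275 and 287 CPM. Oligodendrocyte precursors (28 and 56 cells) had 13 UMIs in Control, 59.1 CPM (31.5 to 101), and 68 UMIs in TBI, 186 CPM (144 to 236). This class differed in make-up between the libraries. The 8 oligodendrocyte markers summed to 23269 CPM in Control and 5604 CPM in TBI, and the 8 precursor markers to 6532 and 10190 CPM. The part of this in the Hes5 difference was not tested. In TBI the 5 highest cells held 63.2% of the Hes5 UMIs, and without them the level was 75.5 CPM. The Control level was not recomputed in that way, so these values cannot be set against each other. Too few UMIs were counted in these precursors for a ratio under the rule above.

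**Figure D4:**
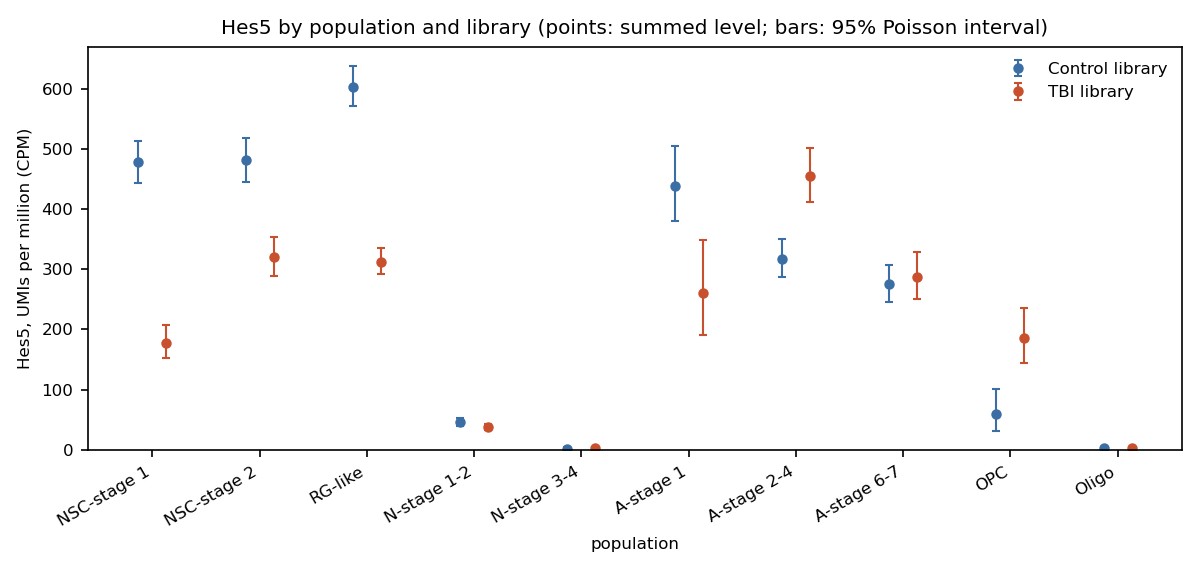
Hes5 level (CPM) in 10 populations with 95% Poisson intervals, in the Control library (blue) and the TBI library (orange). The TBI points lie below the Control points in NSC-stage 1, NSC-stage 2, RG-like cells and A-stage 1 and above them in A-stage 2-4 and oligodendrocyte precursors (OPC), without overlap of the intervals. In TBI the 5 highest cells held 69.7% of the Hes5 UMIs in NSC-stage 1, 54.3% in A-stage 1 and 63.2% in OPC. Without them the TBI level of OPC is 75.5 CPM, and the Control level of OPC was not recomputed in that way.

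Hes1, which in many tissues responds to Notch and to other signals, was a gene of vessels and microglia here. Endothelial cells had 735 CPM (690 to 783) in Control and 900.1 CPM (861 to 941) in TBI, mural cells 650.2 and 583 CPM, and microglia 243 and 343 CPM. Astrocytes had between 60.7 and 120.4 CPM. NSC-stage 1 and NSC-stage 2 had at most 6.53 CPM, in the same cells in which Hes5 was high. RG-like cells of the second clustering had 42 UMIs in Control (19.9 CPM), of which the 5 highest cells held 81.0%. They had 16 UMIs in TBI (6.3 CPM). The RG-like class of all cells had 30 UMIs in Control (11.4 CPM) and 43 UMIs in TBI (12.3 CPM).

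Within the vessel classes the level of Hes1 differed between clusters by more than it did between libraries. Among endothelial clusters it was highest in cluster 31, named venous by its markers and led by Klf2, Klf4 and Egr3, at 1301 and 1445 CPM, and lowest in cluster 7 in Control at 410 CPM, where TBI had 667 CPM. Pericyte cluster 1 had 355 and 362 CPM and pericyte cluster 9 had 655 and 785 CPM. Fos, an immediate early gene that rises within minutes of stimulation and during tissue dissociation, was at 31.7 and 120.3 CPM in cluster 1 and 7056 and 8146 CPM in cluster 9. In endothelial cells it was at 5790 and 5221 CPM in cluster 31 and 395 and 679 CPM in cluster 7. The part of dissociation in the level of Hes1 was not tested.

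The endothelial log2 ratio of Hes1 was 0.29 (0.18 to 0.40) and the mural one -0.16 (-0.29 to -0.03). Neither passed the fold. In pericytes the values were 429 and 565 CPM and in smooth muscle 974 and 779 CPM. The pericyte values take in cluster 9, which had a high level of Hes1 and most of its cells in the TBI library. A smooth muscle cluster held more pericyte RNA in TBI, as given with Notch1. The part of either in these differences was not tested. Without cluster 9 the mural ratio was -0.53, still under the fold.

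Hey1, a Notch target of arterial endothelium, was at 62.9 CPM (50.1 to 77.8) in Control and 76.8 CPM (65.5 to 89.4) in TBI endothelial cells. Arterial endothelial cells accounted for most of it, at 147 CPM (112 to 189) and 169 CPM (138 to 204), against 27.3 and 33.2 CPM in capillary cells. A-stage 6-7 followed at 48.5 and 44.8 CPM and A-stage 2-4 at 36.0 and 29.5 CPM. RG-like cells had 11.9 and 14.2 CPM, and microglia had 0 UMIs in both libraries, where the floor of 3 UMIs stands at 15.8 and 6.68 CPM. The endothelial log2 ratio was 0.29 (-0.10 to 0.69) and the astroglial one -0.10 (-0.57 to 0.35).

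**Figure D5:**
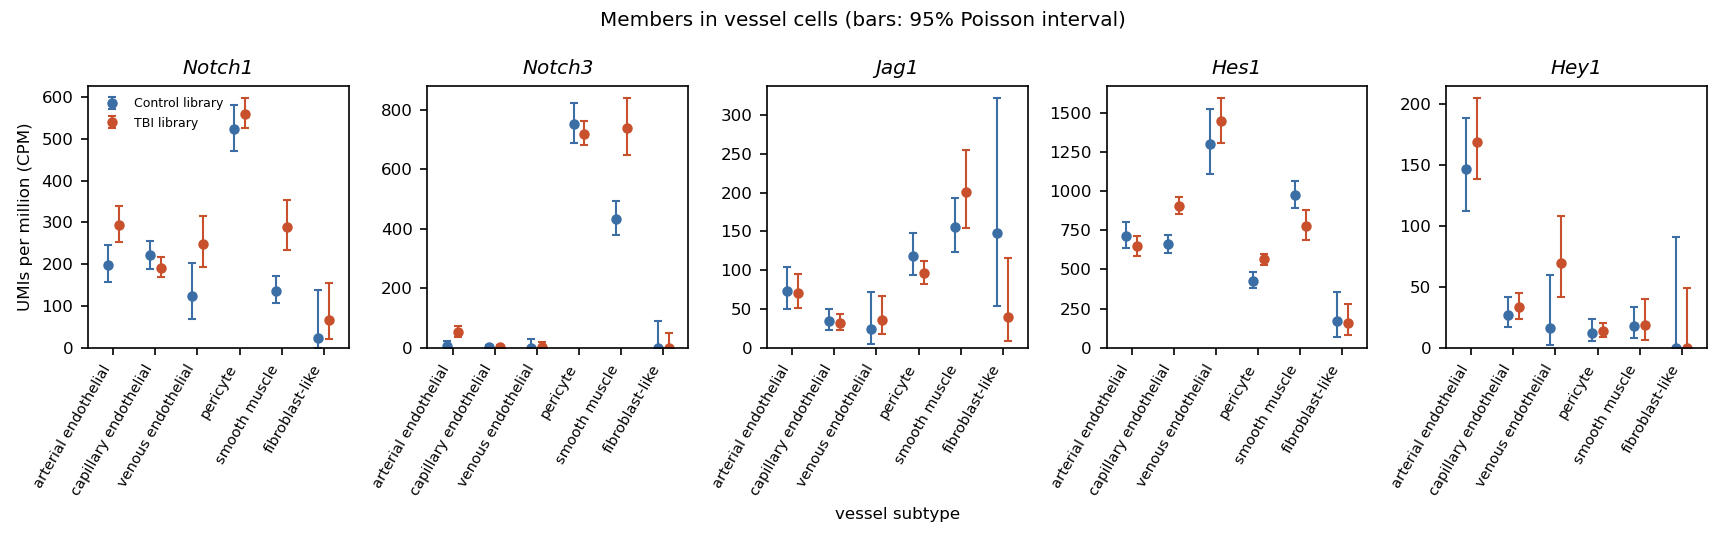
Level (CPM) of Notch1, Notch3, Jag1, Hes1 and Hey1 in 6 vessel subtypes with 95% Poisson intervals, in the Control (blue) and TBI (orange) libraries. Notch3 is high in pericytes and smooth muscle cells, Hey1 in arterial endothelial cells (147 and 169 CPM) and Hes1 in the cluster named venous (1301 and 1445 CPM).

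Hes6, which unlike Hes1 and Hes5 promotes neuronal differentiation, was highest in RG-like cells at 340.4 CPM (316 to 366) in Control and 308 CPM (287 to 330.2) in TBI. NSC-stage 2 had 324 and 263 CPM, with counting intervals that overlapped those of RG-like cells in each library. NSC-stage 1 had 236 and 209 CPM. It stayed at 124 and 111 CPM in N-stage 1-2 and 137 and 123 CPM in N-stage 3-4, where Hes5 was at 1.81 and 2.56 CPM. The log2 ratio was -0.25 (-0.38 to -0.12) in the RG-like class, -0.19 (-0.35 to -0.02) in NSC and -0.20 (-0.34 to -0.05) in Neuron-like cells. All 3 were below 0 and under the fold. Cluster 17 had the largest of the cluster differences in the RG-like class, at 364 and 253 CPM.

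The genes whose pattern was most like each member's were found by Pearson correlation of log2(CPM + 10) over 28 points, 14 populations in each of 2 libraries, among 12041 genes with at least 200 UMIs. Points of a library share its depth and free RNA, and the values are descriptions. Notch3 was closest to Ggt1 (r = 0.99), Art3 and Atp13a5 (0.98 each). Hes5 was closest to 2810459M11Rik (0.94), E130114P18Rik (0.93) and Inhbb (0.92), Dll3 to Myt1 and Hrk (0.95 each) and Miat (0.93), and Hes6 to H2afy, Hmgb3 and Sncaip (0.94 each). Notch2 was closest to Acsf2 (0.95), Slc13a3 (0.93) and Cmya5 (0.91), Hes1 to Shisa5 and Tap2 (0.96 each) and Sparc (0.94), and Jag1 to Axin2 (0.93), Frmd6 (0.91) and Tnks1bp1 (0.90). The weakest matches were those of Hey1 with Slc38a3 (0.88), Usp53 (0.87) and Kifc3 (0.86), of Notch1 with Nqo2, Pdlim5 (0.85 each) and the pathway gene Nrarp (0.84), and of Dll1 with Gpd1 (0.84), Dkc1 (0.83) and Dnph1 (0.81).

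Of the wider list of 57 pathway genes, 52 had at least 200 UMIs. Among the 249 pairs of gene and class with enough UMIs for a ratio, 12 were past the fold higher in TBI and 3 lower, beside 4.19% of 52860 such pairs over all genes. Mural cells accounted for 7 of the 12, out of 32 genes measured there (21.9%, beside 11.6% of all genes), with a median log2 ratio of 0.20 over the list and 0.10 over all genes. In NSC it was 1 higher and 1 lower of 30 (beside 3.1% of all genes), in RG-like cells 2 higher of 35 (beside 3.33%), in Neuron-like cells 0 of 42 (beside 1.9%) and in oligodendrocyte precursors 1 higher of 3 (beside 30.1%). By group, the past ratios were 4 higher and 1 lower among receptor cleavage genes (50 pairs), 5 higher and 1 lower among other targets (25 pairs), 2 higher and 1 lower among nuclear factors (94 pairs) and 1 higher among negative regulators (42 pairs). There were 0 among other ligands and receptors (6 pairs) and among fringe and ligand endocytosis genes (32 pairs).

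Other ligands and modifiers filled in the pattern of the members. Dll4 and Jag2 were endothelial, at 67.3 and 99.4 CPM and at 154 and 158 CPM, and at most 9.45 and 2.36 CPM in RG-like cells. Lfng, a fringe glycosyltransferase that alters how receptors respond to Delta and Jagged ligands, was highest in A-stage 2-4 at 134 and 159 CPM, with 9.5 and 11.4 CPM in RG-like cells. Neurl1b, a ubiquitin ligase of ligand endocytosis, was at 73.2 and 61.1 CPM in NSC-stage 1. Heyl and Hey2 marked mural cells, at 254 and 284 CPM and at 177 and 179 CPM, and Heyl stood at or below 8.79 CPM in endothelial cells.

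Nrarp, a target that feeds back on the receptor's intracellular domain, differed between libraries in opposite directions. In NSC it was at 49.5 CPM in Control and 28.5 CPM in TBI (log2 ratio -0.80, -1.27 to -0.34). In endothelial cells it was at 28.4 and 50.4 CPM (0.83, 0.28 to 1.40) and in mural cells at 163 and 246 CPM (0.59, 0.35 to 0.83). Ccnd1 is also a marker that named the RG-like cells. It was past the fold higher in TBI in NSC (27.9 and 44.7 CPM) and mural cells (34.4 and 52.0 CPM). The same held in oligodendrocyte precursors (259 and 465 CPM), a class in which 30.1% of genes were past the fold. That class differed in make-up between the libraries, as given with Hes5. In the second clustering Ccnd1 was higher in TBI in NSC-stage 1 (18.9 and 49.9 CPM) and not in NSC-stage 2 (37.0 and 33.9 CPM). Aph1b, a subunit of the γ-secretase complex that cleaves Notch, was past the fold higher in TBI in the RG-like class (12.2 and 21.5 CPM) and in mural cells (22.96 and 51.0 CPM). In the RG-like cells of the second clustering it was nearer to equal, at 13.3 and 15.0 CPM from 28 and 38 UMIs.

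Of the remaining genes named by the same rule, Psen2 and Maml3 were highest in N-stage 7 neurons, at 70.3 and 54.7 CPM and at 211 and 239 CPM. Psen2 is the catalytic subunit in some γ-secretase complexes and Maml3 a coactivator of the nuclear Notch complex. Adam10, the protease that makes the first cut in a bound receptor, was highest in endothelial cells at 198 and 213 CPM, and the corepressor Tle2 in A-stage 2-4 at 50.1 and 36.3 CPM. Dtx4 and Numb, which regulate receptor trafficking, were highest in microglia, at 84.5 and 80.2 CPM and at 148 and 156 CPM.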

How the data were processed

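Single-cell libraries of the 2 conditions were sequenced and the authors aligned them to mm10 with Cell Ranger, and the deposited values are raw UMI counts per gene and cell, with 0 columns of no known library. Doublets were called but kept. Barcodes with under 200 genes, or over 3 median absolute deviations in RNA content, were left out. Libraries were integrated and clustered with Seurat 5.3.0 (2000 variable genes, resolution 3.0 for all cells and 0.8 for lineage cells), and clusters were named from markers. Ccnd1 is both such a marker and a gene of the wider list. The linear algebra kernel was fixed, since some lineage cells changed cluster with it. Sums, exact intervals and thinning used Python 3.11.15 and scipy 1.17.1 and were tested on simulated counts. With 1 pooled library a condition no test was made. All members were named, and of each wider group the 2 genes with the highest ratio of top to median level and genes past the fold in the same direction in at least 2 classes. The members and lists were chosen with earlier results of these data known.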

Additional observations from a re-analysis of the deposited data

Results flagged for a closer look

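Nrarp moved in opposite directions between the libraries, with a log2 ratio of TBI to Control of -0.80 in NSC, 0.83 in endothelial cells and 0.59 in mural cells. Each class is 1 pooled library a side, so the difference between the classes was not tested.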

How the results depend on the processing

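No paired analysis was possible because each condition is 1 pooled library, and for the same reason no replicate could be left out. The 4 member ratios past the fold became 2 when doublets were removed, 2 at a minimum of 300 UMIs in all and 30 in each library, and 1 at 2-fold. Other ratios came past the fold under some settings. There were 5 without the filter on RNA content (the same 4 and Hes5 in Neuron-like cells, -0.94), 5 with the mean of per-cell CPM (3 of them shared, with Notch2 in Astrocyte-like cells at -0.62 and Hes1 in microglia at 0.91) and 3 of 20 after thinning (2 shared, with Notch1 in Neuron-like cells at 0.99). Thinning was a single random draw. Between 7 and 9 of the 10 members led in the same population in both libraries. In Control, Hes6 led in NSC-stage 2 without doublets, Dll1 in NSC-stage 2 after thinning, and Hes5 in NSC-stage 2 without integration and in A-stage 1 without cells high in mitochondrial RNA. In TBI, Hes5 led in NSC-stage 2 at the lower resolution. Dll3 led in N-stage 1-2 in both libraries without integration, after thinning and without cells high in mitochondrial RNA. Hes5 in the RG-like class ranged from -1.26 to -1.03 on the log2 scale and Hes5 in NSC from -0.94 to -0.68 over the alternatives, Dll1 in NSC from -0.96 to -0.45 and Dll3 in NSC from 0.50 to 0.68. Of the ratios recomputed, 428 moved by less than their counting interval and 14 by more, and of the levels 224 and 36. Leaving out the 5 highest cells of each class and library, chosen after seeing the data, brought Notch1 in mural cells (0.63) and Hes1 in microglia (1.08) past the fold. In both classes those 5 cells were a larger part of Control, so the step lowered Control more. They held 60.9% of the Hes1 UMIs of 38 Control microglia and 27.3% of those of 89 TBI microglia. For Notch1 in mural cells it was 9.07% in Control (281 cells) and 2.92% in TBI (698 cells). Leaving out one-sided clusters or cells with mural RNA, also chosen after seeing the data, left 4 ratios past the fold. Which cells lie at cluster borders also moved with the linear algebra kernel, so small differences between neighbouring lineage populations are not resolved.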
